A study of Mus musculus with 8 samples.

Results

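The genes described here are the mouse DNA methyltransferases (Dnmt1, Dnmt3a, Dnmt3b), the TET dioxygenases (Tet1, Tet2, Tet3) and the NADP-dependent isocitrate dehydrogenases (Idh1, Idh2). They were taken as every probe set whose platform annotation gave exactly 1 gene symbol equal to one of these 8 names, which gave 21 probe sets of the 45037 on the array: 3 for Dnmt1, 5 for Dnmt3a, 2 for Dnmt3b, 4 for Tet1, 2 for Tet2, 1 for Tet3, 2 for Idh1 and 2 for Idh2. The cells were 32Dcl3, an established line of mouse myeloid precursors. It proliferates with interleukin-3 (IL-3) and differentiates along the neutrophil lineage when given granulocyte colony-stimulating factor (G-CSF). One culture carried the empty retroviral vector pMYs-IG (mock) and the other pMYs-FLAG-ASXL1-MT-IG, which encodes a FLAG-tagged mutant ASXL1 (ASXL1-MT). RNA of both cultures was measured under IL-3 and 2, 6 and 24 h into G-CSF, with 1 Affymetrix array per condition and 8 arrays in all. Nothing in the labels gives replicate cultures, so the p-values below measure only the spread between these arrays. That spread may be technical or a response that differs between the cultures, and the number of arrays limits the precision.

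DNA methylation in mammals is written on cytosines of CpG dinucleotides. DNMT1 copies existing methylation onto the new strand after replication, while DNMT3A and DNMT3B set new methylation. TET enzymes oxidise methylcytosine and so begin its removal, and they need iron and 2-oxoglutarate to do so. IDH1 in the cytosol and IDH2 in mitochondria make 2-oxoglutarate from isocitrate, and their cancer mutants make 2-hydroxyglutarate, which inhibits TET enzymes. DNMT3A, TET2, IDH1 and IDH2 are, like ASXL1, recurrently mutated in human myeloid neoplasms.

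Values are log2 expression of a probe set minus its own median over the 8 arrays, so 0 is the middle of that probe set and levels of different probe sets cannot be set against each other. Base 2 was assumed. Of the 21 probe sets 17 were estimated to be bright enough to test (second-highest array at or above the median level of the table). The 4 that were not were 3 of Tet1 and the only one of Tet3. Levels were inferred, and the cut of 6.36 lies inside the range of 4 to 8 that holds all 4 Tet1 probe sets. Their division into tested and not tested is therefore uncertain. Differences are given ± the standard error (SE) from limma, which was fitted to 29390 probe sets with time point and vector as terms, and adjusted p is limma's after Benjamini-Hochberg adjustment over all of them, called at 0.05. A G-CSF difference compares 2 arrays with 2, and an ASXL1-MT difference 4 with 4. The 2 arrays of a time point are a mock and an ASXL1-MT array used as replicates. A response that differs between the cultures is therefore counted as error in the G-CSF tests. No IL-3 array was taken at a later time, so a G-CSF difference cannot be told apart from time in culture.

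The arrays carried granulocytic markers: of 13 granulocyte and progenitor genes with a probe set, 10 had an estimated level of 8 or more, and at 24 h 11 of 12 tested rose. Of all tested probe sets 11.7% rose and 8.30% fell at 24 h, and 5.91% rose and 4.75% fell at 6 h. Of 8 eosinophil, basophil and mast cell genes 7 were tested and 5 rose at 24 h, and of 5 tested macrophage and dendritic genes 3 rose. The largest marker changes at 24 h were those of the eosinophil genes Prg2 (6.51 ± 0.47) and Prg3 (5.91 ± 0.45), followed by the granulocyte gene Ngp (4.95 ± 0.26). Of 6 tested erythroid and megakaryocytic genes 2 rose at 6 h, Gata1 (1.14 ± 0.11) and Epor (0.79 ± 0.15), and at 24 h 2 rose, Epor and Itga2b, and Klf1 fell (-1.12 ± 0.13). Of the lymphoid and the fibroblast genes 2 each were tested and none passed, and no lymphoid gene reached a level of 8. These markers moved with the same time points as the genes described below, and their part in the results was not tested. In bulk RNA a change in the share of a cell type and a change per cell cannot be told apart. The targeted gene Asxl1 had 3 probe sets, whose ASXL1-MT minus mock differences were -0.34 ± 0.07, -0.04 ± 0.06 and 0.68 ± 0.16 (limma adjusted p of 0.827, 0.914 and 0.827), so these probes do not settle the vector label. Where they lie relative to the mutant cDNA is not given in the sources used here.

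Among the erasers, Tet2 rose in both cultures, and it had the largest change of all 17 tested probe sets at 6 and at 24 h. In probe set 1438781_at the mock arrays read -0.47 in IL-3, -0.62 at 2 h, 0.52 at 6 h and 1.35 at 24 h. The ASXL1-MT arrays read -0.68, -0.82, 0.47 and 1.01 at the same points. All 4 arrays at 6 and 24 h lay above all 4 arrays in IL-3 and at 2 h, and within each culture the 24 h array was the highest.

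The other Tet2 probe set, 1455300_at, read -0.59, -0.16, 0.27 and 0.74 in mock and -0.69, -0.57, 0.16 and 0.81 in ASXL1-MT. It gave the same separation of late from early arrays, and the 2 probe sets correlated at r = 0.95 over the 8 arrays, which share the time course. At 6 h the differences from IL-3 were 1.07 ± 0.11 (adjusted p 0.0235, limma) and 0.86 ± 0.15 (adjusted p 0.0436, limma). At 24 h they were 1.75 ± 0.11 (3.37-fold, adjusted p 0.0106, limma) and 1.42 ± 0.15 (2.67-fold, adjusted p 0.0139, limma). From 6 to 24 h the value went up by a further 0.83 in mock and 0.54 in ASXL1-MT in the first probe set, and by 0.47 and 0.65 in the second. At 2 h the 2 probe sets measured -0.15 ± 0.11 and 0.27 ± 0.15, and neither passed.

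The start of Tet2 lies in a stretch dense in CpG, the substrate of these enzymes, and that of Dnmt3b is less dense. They are shown because Tet2 rose and Dnmt3b fell, but Idh1, which also rose, had fewer CpG than Dnmt3b, as given below. The Dnmt1 start is shown because it alone among the members held a searched E2F site. Each line gives the 250 bases before a start site from RefSeq (build GRCm38.p6), 5′ to 3′. Capitals mark CpG in Tet2 and Dnmt3b, and the E2F motif in Dnmt1.
Tet2, chr3:133544391-133544640, minus strand: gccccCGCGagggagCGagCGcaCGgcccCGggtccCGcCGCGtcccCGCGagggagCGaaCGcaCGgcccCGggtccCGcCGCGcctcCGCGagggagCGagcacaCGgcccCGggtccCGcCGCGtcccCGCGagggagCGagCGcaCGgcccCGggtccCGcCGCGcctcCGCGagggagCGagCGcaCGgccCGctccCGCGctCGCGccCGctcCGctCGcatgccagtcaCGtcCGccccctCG
Dnmt3b, chr2:153649199-153649448, plus strand: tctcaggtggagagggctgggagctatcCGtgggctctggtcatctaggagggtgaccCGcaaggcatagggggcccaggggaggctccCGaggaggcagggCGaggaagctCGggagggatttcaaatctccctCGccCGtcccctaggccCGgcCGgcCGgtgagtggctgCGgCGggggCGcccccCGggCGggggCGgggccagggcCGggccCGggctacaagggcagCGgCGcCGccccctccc
Dnmt1, chr9:20952624-20952873, minus strand: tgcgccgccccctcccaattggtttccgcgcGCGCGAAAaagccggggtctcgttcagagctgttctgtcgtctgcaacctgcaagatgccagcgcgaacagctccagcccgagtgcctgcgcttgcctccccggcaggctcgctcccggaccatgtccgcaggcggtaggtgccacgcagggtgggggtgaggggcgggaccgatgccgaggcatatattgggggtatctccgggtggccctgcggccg

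The Tet2 stretch held 51 CpG and 83.6% G and C, against 21 CpG and 75.2% in Dnmt3b. Over the window of 300 bases, which adds the 50 after the start, Tet2 had 57 CpG, a number reached by 0.152% of 32851 mouse windows, and Dnmt3b 30, reached by 11.7%. Idh1, which rose, had 23 in each of its windows, fewer than Dnmt3b. Of the genes with no call, Dnmt3a had 46, 47 and 18, Dnmt1 33, 12 and 2, Tet1 17 and Idh2 20. Tet3, not tested, had 22. A relation of CpG number to the change was not tested. All 8 genes matched the promoter table, with 13 windows. Both strands were searched for 4 motifs: E2F (TTTCGCGC or TTTGGCGC), the E-box CACGTG, STAT (TTCNNNGAA) and C/EBP (TTGCNNAA). E2F sites stood at positions 32 and 284 of 1 of the 3 Dnmt1 windows and in 0.813% of all windows. The E-box was in 1 of the 3 Dnmt3a windows and in 7.15% of all windows. The STAT and C/EBP motifs, found in 8.30% and 10.8% of all windows, were in none of the 13. Presence or absence of these letters is a description of the windows only.

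**Figure D1:**
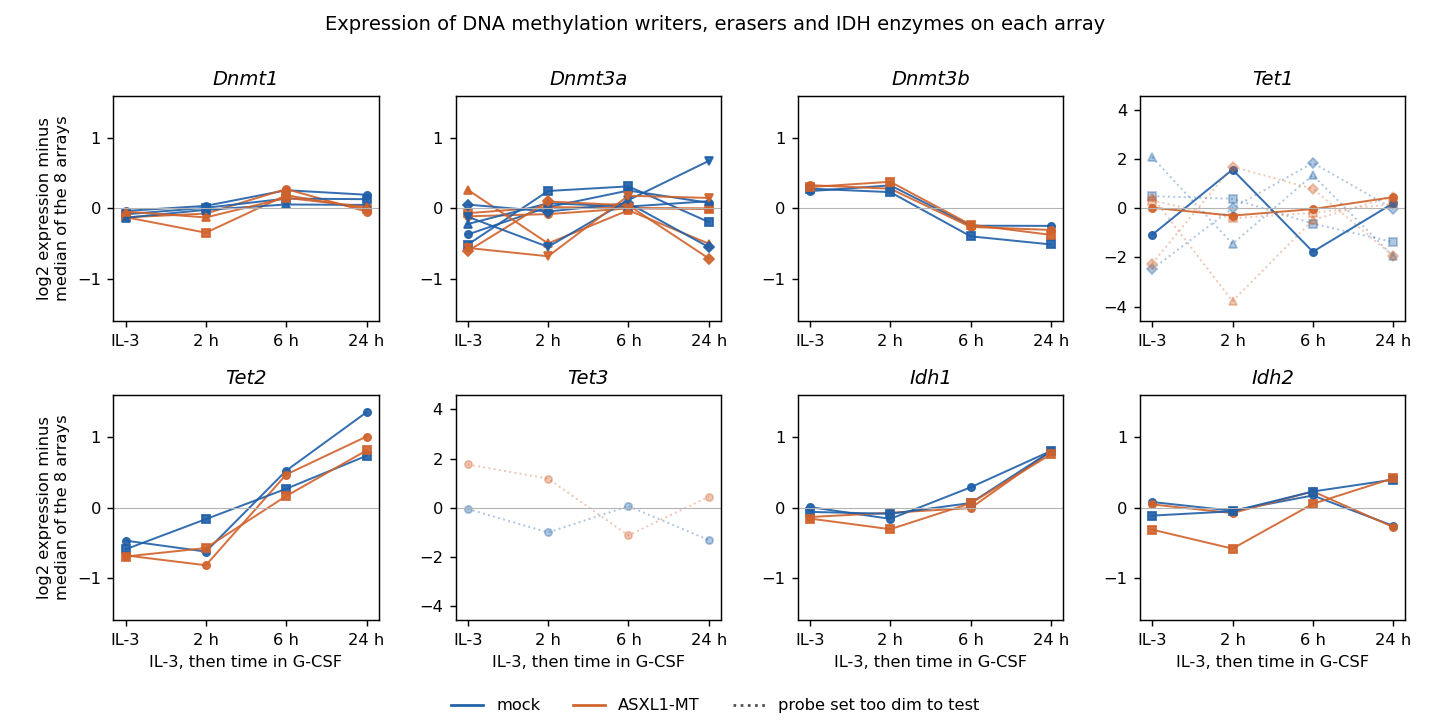
Each panel is 1 gene; the x axis is the condition (IL-3, then 2, 6 and 24 h of G-CSF), the y axis log2 expression minus the probe set's median over the 8 arrays, each line 1 probe set in 1 culture (blue mock, orange ASXL1-MT), and dotted lines probe sets too dim to test. Tet2 climbs to between 0.74 and 1.35 at 24 h, Idh1 to between 0.76 and 0.80, and Dnmt3b drops to between -0.51 and -0.25; the Tet1 and Tet3 panels have a wider y axis.

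Tet1 and Tet3 were dim, and no Tet1 probe set agreed closely with another. The tested Tet1 probe set, 1419897_at, read -1.08, 1.58, -1.77 and 0.21 in mock and 0.03, -0.29, -0.03 and 0.46 in ASXL1-MT. Its values in the 2 cultures crossed, and its 24 h difference of 0.86 ± 0.94 (adjusted p 0.571, limma) had a 95% interval from -1.70 to 3.42. The 3 other Tet1 probe sets, all too dim to test, ranged over 1.87 (1419896_at), 5.87 (1429448_s_at) and 4.34 (1455425_at) log2 units between arrays, and correlated with one another at r between -0.59 and 0.43. Of these 1455425_at read -2.48, 0.01, 1.86 and -0.01 in mock and -2.25, 1.70, 0.80 and -1.94 in ASXL1-MT. It was lowest in IL-3 in both cultures and higher by 2.498 and 3.948 at 2 h and by 4.34 and 3.05 at 6 h, with a 95% interval at 6 h from 1.03 to 6.36, but it stood outside the tested set and has no adjusted p. The Tet3 probe set, 1439324_at, had an estimated level under 4 and read -0.06, -1.01, 0.06 and -1.33 in mock and 1.76, 1.18, -1.14 and 0.44 in ASXL1-MT. All 4 Tet1 probe sets had an estimated level of 4 to 8. The median SD over the arrays was 1.34 among the 8451 probe sets at a level under 4, 0.75 among 22575 at 4 to 8, and 0.26 among 14011 at 8 or more.

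Among the writers, Dnmt3b fell between 2 and 6 h of G-CSF and stayed low. Probe set 1418351_a_at read 0.25 in IL-3, 0.33 at 2 h, -0.25 at 6 h and -0.25 at 24 h in mock, and 0.33, 0.28, -0.26 and -0.31 in ASXL1-MT. Probe set 1449052_a_at read 0.28, 0.23, -0.40 and -0.51 in mock and 0.30, 0.38, -0.23 and -0.38 in ASXL1-MT. In both probe sets all 4 early arrays (IL-3 and 2 h) lay above all 4 late ones, with no overlap.

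At 6 h Dnmt3b measured -0.54 ± 0.10 and -0.61 ± 0.10 (adjusted p 0.0448 and 0.0386, limma). At 24 h it measured -0.56 ± 0.10 (1.48-fold lower, adjusted p 0.0284, limma) and -0.74 ± 0.10 (1.66-fold lower, adjusted p 0.0184, limma). From 6 to 24 h the value moved by only -0.0025 in mock and -0.04 in ASXL1-MT in the first probe set, and by -0.12 and -0.14 in the second. At 2 h the differences from IL-3 were 0.02 ± 0.10 and 0.01 ± 0.10, and neither passed. The leading probe sets of Dnmt3b and Tet2 ran opposite to each other, at r = -0.94 over the 8 arrays, which share the time course.

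Dnmt1, the maintenance enzyme, kept within a narrow band. Its leading probe set, 1422946_a_at, read -0.04, 0.04, 0.26 and 0.19 in mock and -0.13, -0.07, 0.27 and -0.04 in ASXL1-MT. The highest array in each culture was the one at 6 h, and the 24 h array of ASXL1-MT lay near its 2 h and IL-3 values. At 6 h the difference was 0.35 ± 0.11 (adjusted p 0.121, limma), which passed with a stricter filter on dim probe sets (adjusted p 0.0254) and with a variance prior that follows the level (adjusted p 0.0269). The other 2 probe sets, also highest at 6 h in both cultures, measured 0.27 ± 0.135 and 0.19 ± 0.10 at 6 h (adjusted p 0.276 and 0.308, limma). Neither passed at 6 h in any alternative fit. At 24 h the 3 Dnmt1 probe sets measured 0.16 ± 0.11, 0.16 ± 0.135 and 0.12 ± 0.10. Their 95% intervals ran from -0.20 at the lowest to 0.53 at the highest.

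Dnmt3a was read by 5 probe sets that did not move together. Of these, 1423063_at and 1423064_at had an estimated level of 8 or more. The other 3 were at 4 to 8, where probe sets varied more between arrays (median SD 0.75 against 0.26). The leading one, 1423063_at, read -0.37, 0.02, 0.25 and 0.08 in mock and -0.11, -0.08, -0.0006 and 0.0006 in ASXL1-MT, and correlated at r = 0.81 with 1423064_at but at r between -0.07 and 0.37 with the other 3. At 24 h it measured 0.28 ± 0.16 (adjusted p 0.277, limma). The probe set with the largest difference at 24 h was 1460324_at, which read -0.12, -0.55, 0.12 and 0.67 in mock and -0.56, -0.68, 0.18 and 0.15 in ASXL1-MT. It measured 0.75 ± 0.18 and missed the test (adjusted p 0.0602, limma), although all 4 late arrays lay above all 4 early ones. The remaining 3 measured 0.19 ± 0.23, -0.22 ± 0.32 and -0.35 ± 0.22 at 24 h, so the direction for Dnmt3a depended on the probe set, and the mean of its 5 probe sets was 0.13 (adjusted p 0.466).

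Of the enzymes that supply 2-oxoglutarate, Idh1 rose late. Probe set 1419821_s_at read 0.01, -0.16, 0.29 and 0.80 in mock and -0.13, -0.07, -0.01 and 0.80 in ASXL1-MT. Probe set 1422433_s_at read -0.06, -0.09, 0.06 and 0.80 in mock and -0.16, -0.31, 0.06 and 0.76 in ASXL1-MT. In each probe set both 24 h arrays stood above the other 6. Among those 6 the conditions overlapped in 1419821_s_at, while in 1422433_s_at both 6 h arrays lay above the IL-3 and 2 h arrays.

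The Idh1 differences at 24 h were 0.86 ± 0.13 (1.82-fold, adjusted p 0.0235, limma) and 0.89 ± 0.10 (1.85-fold, adjusted p 0.0157, limma). With quantile normalization the first no longer passed (0.63, adjusted p 0.0657). At 6 h they were 0.20 ± 0.13 and 0.17 ± 0.10 (adjusted p 0.378 and 0.349, limma). From 6 to 24 h the values went up by 0.52 and 0.81 in mock and ASXL1-MT in the first probe set and by 0.73 and 0.70 in the second. The _s_at suffix marks probes that can match transcripts of more than 1 gene, although the annotation names only Idh1 here.

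The 2 Idh2 probe sets disagreed, and their estimated levels differed, at 8 or more for 1450048_a_at and 4 to 8 for 1453601_at. The leading one, 1450048_a_at, read 0.08, -0.04, 0.17 and -0.26 in mock and 0.04, -0.08, 0.23 and -0.28 in ASXL1-MT, with the 24 h arrays the lowest in both cultures. The other, 1453601_at, read -0.11, -0.05, 0.23 and 0.40 in mock and -0.31, -0.58, 0.05 and 0.42 in ASXL1-MT, with the 24 h arrays the highest. Their 24 h differences were -0.33 ± 0.09 (adjusted p 0.0768, limma) and 0.62 ± 0.16 (adjusted p 0.0677, limma), they correlated at r = -0.32, and their mean was 0.14 (adjusted p 0.437). The leading probe set passed as lower at 24 h after centring of the arrays (-0.42, adjusted p 0.0451), with the stricter filter (adjusted p 0.0125), with the level-dependent prior (adjusted p 0.0205) and when genes were tested by their leading probe set (adjusted p 0.0491).

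In all, 6 of the 17 tested probe sets passed at 24 h, 4 higher (Tet2 and Idh1) and 2 lower (Dnmt3b), or 35.3%, where 20.0% of all 29390 did (11.7% higher and 8.30% lower). The median difference of the 17 was 0.19 and that of all tested probe sets 0.12. At 6 h 4 of 17 passed, 2 higher (Tet2) and 2 lower (Dnmt3b), against 10.7% of all (5.91% higher and 4.75% lower), with medians of 0.27 and 0.10. At 2 h none of 17 and none of 29390 passed with limma (0% called), with 0 and 2376 at an unadjusted p under 0.05. Probe sets of 1 gene are not independent, and the called ones come from 3 genes.

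The calls rest on few arrays and on the filter. When 1 of the 2 IL-3 arrays or 1 of the 2 arrays at 24 h was dropped, no probe set passed at 24 h (0 of 29390 with limma, and between 7679 and 8248 had an unadjusted p under 0.05). At 6 h none passed with any 1 of the 8 arrays dropped (6072 to 8277 by that unadjusted measure). With no filter on dim probe sets, Tet2 1438781_at (adjusted p 0.0455) alone of these passed at 24 h and none at 6 h, while the differences themselves are the same there.

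**Figure D2:**
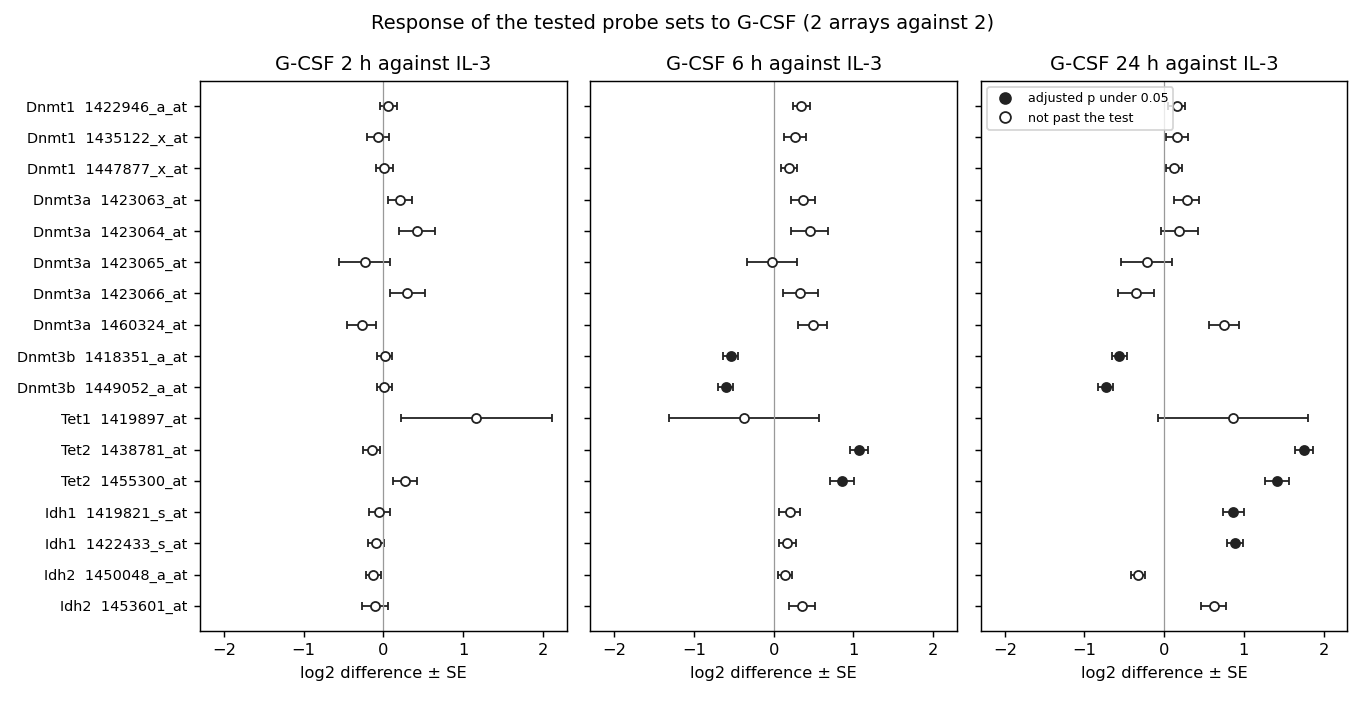
The 17 tested probe sets (rows) with their log2 difference from IL-3 (x axis) at 2, 6 and 24 h of G-CSF, bars being ± SE from limma over 2 arrays against 2, and filled points passing an adjusted p of 0.05. No point is filled at 2 h, Dnmt3b and Tet2 are filled at 6 h, and Idh1 joins them at 24 h, with Tet2 at 1.75 and 1.42.

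The comparison of ASXL1-MT with mock asks whether these genes differed between the cultures. Each vector had a single culture, so vector and culture cannot be told apart. None of the 17 probe sets passed (smallest adjusted p 0.852 with limma, and 0 at an unadjusted p under 0.05), as was so for all 29390 (0% called, 1745 at an unadjusted p under 0.05). The median difference of the 17 was -0.09 and that of all tested probe sets 0.01. For Tet2 the difference was -0.20 ± 0.08 in 1438781_at, with a 95% interval from -0.42 to 0.015, and ASXL1-MT read lower at all 4 time points, with differences of -0.06 to -0.34. In 1455300_at it was -0.13 ± 0.11 (95% interval -0.42 to 0.15), lower at 3 of 4 time points.

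For Dnmt3b the ASXL1-MT differences were -0.01 ± 0.07 (95% interval -0.19 to 0.17) and 0.12 ± 0.07 (-0.07 to 0.30). For the leading probe set of Dnmt1 it was -0.11 ± 0.08 (-0.31 to 0.10), for that of Dnmt3a -0.04 ± 0.11 (-0.34 to 0.25), for that of Idh1 -0.09 ± 0.09 (-0.34 to 0.17) and for that of Idh2 -0.01 ± 0.06 (-0.18 to 0.17). Between these cultures, the unadjusted intervals leave out a 2-fold difference in either direction for each of these 6 probe sets. Tet1 1419897_at, at 0.30 ± 0.67, had an interval from -1.51 to 2.12, which does not leave out such a difference. The time points of a single culture per vector stood in for replicates, so no interval here bounds an effect of ASXL1-MT apart from the culture. Tet3, not tested, gave ASXL1-MT minus mock differences of 1.82 in IL-3, 2.19 at 2 h, -1.19 at 6 h and 1.77 at 24 h.

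The response at 24 h was also compared between the cultures, as the ASXL1-MT minus mock difference at 24 h against that at the other 3 times. None of the 17 passed (every adjusted p 0.999, limma), nor any of 29390 (0% called, 1738 at an unadjusted p under 0.05). For Tet2 the 2 probe sets gave -0.19 ± 0.18 and 0.28 ± 0.23, which differ in sign. Idh1 gave 0.11 ± 0.24 and 0.06 ± 0.19, and Dnmt3b -0.06 ± 0.17 and 0.02 ± 0.18. With 2 residual degrees of freedom the intervals were wide: for Tet2 1438781_at it ran from -0.74 to 0.35.

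**Figure D3:**
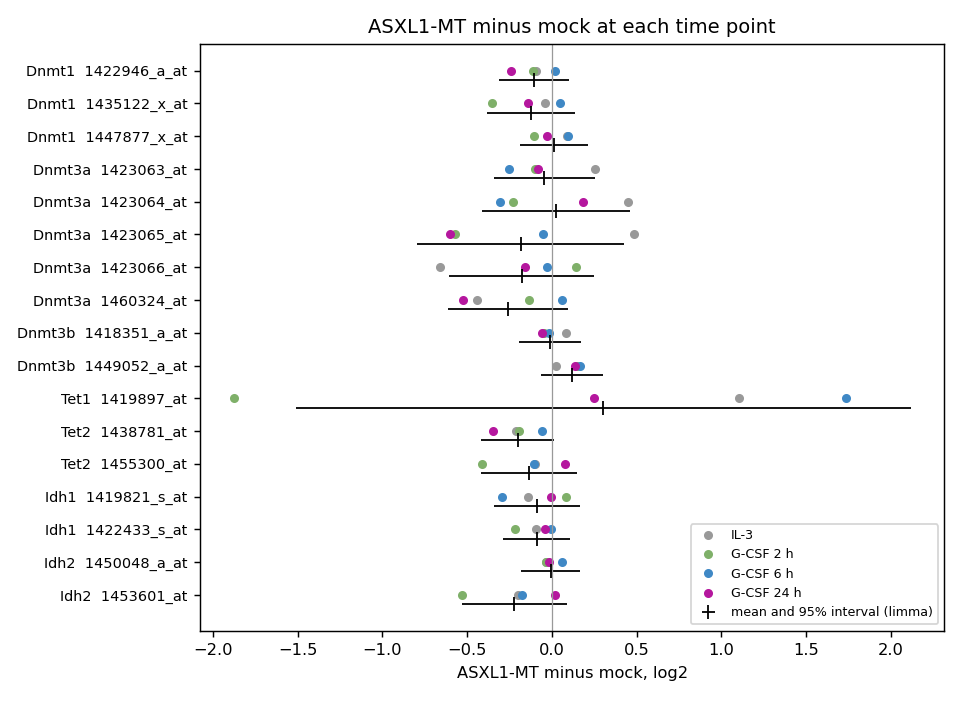
ASXL1-MT minus mock (x axis, log2) for the 17 tested probe sets (rows); coloured points are the single differences in IL-3 and at 2, 6 and 24 h, and the black mark and line the limma mean and its 95% interval over 4 arrays against 4. Every interval includes 0, and Tet1 has by far the widest, from -1.51 to 2.12.

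Genes that work beside these enzymes were read through the leading probe set of each gene. Of 10 partners of the writers, 9 were tested, and only Cdca7, a partner of the chromatin remodeller HELLS, passed, falling by 0.74 on the log2 scale at 24 h (SE 0.10, adjusted p 0.0208, limma) and by 0.68 at 6 h (adjusted p 0.0371, limma), where its 2 probe sets averaged missed the test (-0.45, adjusted p 0.0583). Uhrf1, which brings DNMT1 to newly copied DNA, measured -0.28 ± 0.11, Hells itself -0.43 ± 0.15 and the replication clamp Pcna 0.12 ± 0.09 at 24 h, none of which passed. Of all probe sets 8.30% were lower at 24 h and 4.75% at 6 h, where this list had Cdca7 alone of 9. The list's median at 24 h was -0.21, against 0.12 for all tested probe sets. Of 22 S phase genes 2 passed as lower at 24 h, a share near the 8.30% of all probe sets: Mcm2 of the replicative helicase (-0.49 ± 0.11, adjusted p 0.0456, limma) and the clamp loader subunit Rfc4 (-0.50 ± 0.11, adjusted p 0.0499, limma). None passed at 6 h, against 10.7% of all probe sets. With averaged probe sets the ribonucleotide reductase subunit Rrm2 passed as lower at both times (-0.64 at 6 h, adjusted p 0.0416, and -0.60 at 24 h, adjusted p 0.0346) and the thymidylate synthase Tyms as higher at 24 h (1.35, adjusted p 0.0296). These replication genes are given because Dnmt1 and Uhrf1 are expressed with DNA synthesis.

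Among 9 tested readers of methylated CpG, 3 rose and 1 fell at 24 h, against 11.7% of all probe sets higher and 8.30% lower. The zinc finger repressor Zbtb4 measured 1.71 ± 0.13 (adjusted p 0.0111, limma), and Mbd6 0.97 ± 0.15 and Mbd1 0.60 ± 0.10. Mbd3, a subunit of the NuRD complex, measured -1.06 ± 0.17. Zbtb4 had risen by 6 h (1.59 ± 0.13); its 4 probe sets averaged, 1.43 at 6 h and 1.50 at 24 h, fell short of the test (adjusted p 0.071 and 0.0509). With such averages Mbd4, a glycosylase that binds methylated CpG, passed as higher (1.02 at 6 h, adjusted p 0.034, and 0.76 at 24 h, adjusted p 0.0422) and Setdb1 as lower at 6 h (-0.56, adjusted p 0.0464).

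Of 19 tested genes of base excision and TET partners, 5 rose and 2 fell at 24 h, against 11.7% of all probe sets higher and 8.30% lower. The glycosylase gene Tdg of the same list was not among the 19 tested. Gadd45g measured 1.66 ± 0.19 and Gadd45a 0.98 ± 0.14, stress-induced proteins that have been linked to active demethylation. The uracil glycosylase Smug1 measured 0.71 ± 0.15 and Ogt, the O-GlcNAc transferase that binds TET proteins, 0.58 ± 0.11; Gadd45b measured 0.45 ± 0.10 (adjusted p 0.0491, limma) and missed the test with its 3 probe sets averaged (0.34, adjusted p 0.102). The abasic site nuclease Apex1 measured -1.09 ± 0.12 and the ligase Lig3 -0.88 ± 0.14, but Lig3 did not pass with its 5 probe sets averaged (-0.39, adjusted p 0.265). With averaged probe sets the glycosylase Neil3 (1.29, adjusted p 0.0158) and Parp1 (-0.67, adjusted p 0.0217) passed too, so 5 were again higher and 2 lower. With quantile normalization 1 of the 19 rose and 3 fell. At 6 h Gadd45a rose (0.74 ± 0.14) and Apex1 (-0.83 ± 0.12) and the dioxygenase Alkbh1 (-0.80 ± 0.10) fell; with averaged probe sets 3 were higher and 2 lower.

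The methyl donor cycle, which makes S-adenosylmethionine for the writers, had 5 of 13 tested genes lower and none higher at 24 h. Of all probe sets 8.30% were lower. Mat1a and Mat2a, the list's genes for the enzyme that makes S-adenosylmethionine, were not among the 13 tested. Mat2b measured 0.56 ± 0.16 at 24 h and did not pass (adjusted p 0.085, limma). Mtap, which salvages methionine, measured -1.89 ± 0.12 (3.71-fold lower, adjusted p 0.0106, limma). Ahcy, which clears the methyltransferase inhibitor S-adenosylhomocysteine, measured -1.48 ± 0.12, and the folate enzymes Mthfd1 and Mthfd2 -1.24 ± 0.13 and -0.84 ± 0.14. Shmt2 was the fifth (-0.65), and missed the test with its 4 probe sets averaged (-0.26, adjusted p 0.597). At 6 h 4 of 13 were lower, Mtap, Mthfd2, Shmt1 and Mtrr, between -1.81 and -0.73, against 4.75% of all probe sets. With averaged probe sets Shmt1 passed at 24 h (-0.85, adjusted p 0.0142) and Mthfd1 at 6 h (-0.66, adjusted p 0.0318), which made 5 of 13 lower at each time. With no filter on dim probe sets 1 of 16 passed at 24 h, and without any 1 of the IL-3 or 24 h arrays none of 13.

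Of 24 tested genes of 2-oxoglutarate metabolism beside Idh1 and Idh2, 10 were lower at 24 h and none higher, against 8.30% of all probe sets lower and 11.7% higher. These 10 moved in the opposite direction to Idh1. The aminotransferase Got1 measured -1.08 ± 0.10, the alanine aminotransferase Gpt2 -0.94 ± 0.13 and Idh3a, a subunit of the NAD-dependent isocitrate dehydrogenase of the citric acid cycle, -0.83 ± 0.09. Got2, the mitochondrial partner of Got1, measured -0.71, and the other 6 lay between -0.70 and -0.48. The list's median was -0.37. With a gene's probe sets averaged 7 of 24 were lower, and Got2 (-0.11), Sucla2 (-0.03) and Dld (0.08) were not among them. D2hgdh, which removes 2-hydroxyglutarate, measured 0.51 ± 0.16 (adjusted p 0.0965, limma). At 6 h 3 of 24 were lower, Gpt2, Idh3a and Got1, against 4.75% of all probe sets. Idh3a did not pass at 6 h with its 4 probe sets averaged (adjusted p 0.161, limma). With no filter on dim probe sets 0 of 25 passed at 24 h, and the same was so of the 24 without any 1 of the IL-3 or 24 h arrays; without a 2 h or a 6 h array 2 and 1 of them passed.

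**Figure D4:**
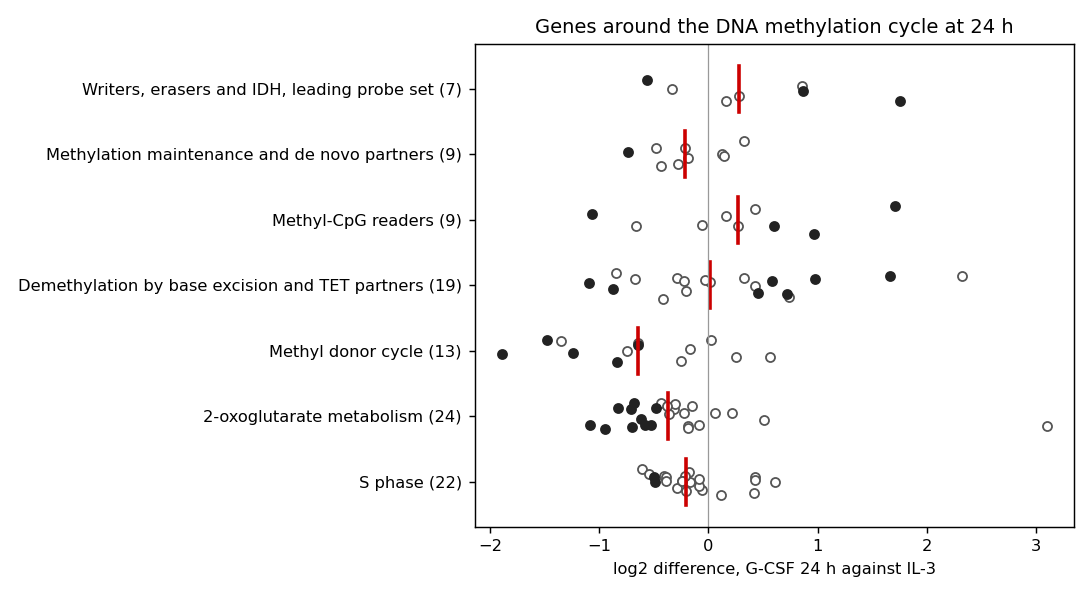
Log2 difference at 24 h of G-CSF against IL-3 (x axis) for tested genes of each list (rows, number tested in brackets), 1 point per gene by its leading probe set, filled where the adjusted p is under 0.05, with the list median in red. The medians of the methyl donor and 2-oxoglutarate lists lie at -0.65 and -0.37, and every filled point in both lies below 0.

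The genes most like each member's leading probe set over the 8 arrays were looked up among 7630 bright genes, as a description that partly reflects the search over so many. For Idh2 and Dnmt3a, whose probe sets disagreed, a match describes the leading probe set only. Tet2 was closest to Tecr and Exoc1 (r of 0.998 with each), which changed less, by 0.48 and 0.61 at 24 h. Dnmt3b was closest to Eif2b3 and Noc2l (r of 0.995 and 0.994), at -1.75 and -1.02 at 24 h. Idh1 was closest to Ankrd28 and Rxrb (r of 0.996 and 0.992), Dnmt1 to Nsmce2 and Prkaca (0.993 and 0.990), Idh2 to Prkar2b and Zfpm1 (0.985 with each) and Dnmt3a to Myo1c and Tmed4 (0.983 with each). The best match of Tet1, Pif1, reached 0.850. The arrays share 1 time course, so many genes reach such values.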

How the data were processed

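The authors deposited 1 table of log2 values for 45037 probe sets and 8 arrays, centred on each probe set's median (largest departure 5.0e-07). MAS 5.0 was the acquisition software per the labels' text, and RMA is listed in the submitters' processing notes. The sources used here do not state log base, centring or scaling. Base 2 was taken from RMA. A platform table named 1 gene for 34945 probe sets, several for 932 and none for 9160.

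Because the deposited values are centred, each probe set's level was inferred from how finely its values, stored as single-precision numbers, were rounded, which resolves mainly the ranges under 4, 4 to 8 and 8 or more. Probe sets whose second-highest array reached the table median of 6.36 were tested (29390), which departs from a design written for uncentred values. In a check on 8000 simulated probe sets the median error of the level was 0.782. Of these, 79.4% were placed on the right side of the simulated median. limma 3.58.1 in R 4.3.3 fitted time point and vector to the 8 arrays (3 residual degrees of freedom, prior worth 1.23), two-sided, with an indicator for ASXL1-MT at 24 h added for the last comparison. A gene's leading probe set is the one of highest rounded level, ties going to the more specific type and then the first name. The fits were checked on simulated data.

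Named were all members, list genes past the test (up to 4 per direction, with Uhrf1, Hells, Pcna, D2hgdh, Gadd45b, Shmt2, Sucla2, Dld, Mat2b and genes passing only with averaged probe sets chosen after their values were seen), and the 2 genes most like each member. Mat1a, Mat2a and Tdg, not tested, were also named after the results were seen. Members and lists were chosen with earlier results of these data known. Alternatives were array centring, quantile normalization, no filter or one at the 70th percentile, gene-level fits, a trended robust prior, dropping the other factor and leaving out each array.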

Additional observations from a re-analysis of the deposited data

Results flagged for a closer look

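In 2 probe sets the difference between IL-3 and 24 h of G-CSF had opposite signs in the cultures. Dnmt3a 1423065_at differed by 0.32 in mock and by -0.77 in ASXL1-MT. Tet1 1429448_s_at, too dim to test, differed by -4.05 in mock and hardly at all in ASXL1-MT (0.0227). Each value rests on 1 array against 1, and these 2 differences between the cultures were not tested as such. In the limma fit the ASXL1-MT difference specific to 24 h did not pass for the Dnmt3a probe set (-0.56 ± 0.51, adjusted p 0.999, limma).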

How the results depend on the processing

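The 51 differences of the 17 tested probe sets (6 h, 24 h and ASXL1-MT) were refitted under each alternative. Of their values under the alternatives 617 kept direction and side of the threshold, 80 lost and 6 gained the call, and 35 changed sign. The number of all probe sets passing at 24 h was 5885, and 477 with no filter on dim probe sets, 3419 of 13060 with 1 leading probe set per gene, 2480 with gene means, the average over a gene's probe sets, and 0 to 2561 with 1 array left out. At 6 h it was 3135, and 0 with no filter, 5876 with the stricter filter, 1498 with gene means, 5587 with the trended robust prior, and 0 in each case with 1 array left out. At 2 h it was 0, and 40 with the stricter filter, 1 with leading probe sets, 15 with the trended prior and 7 with no replicate block (vector term dropped); it was 0 with 1 array left out. Of the members, 6 passed at 24 h, 1 with no filter, 3 with gene means and 0 to 3 with 1 array left out; 4 passed at 6 h, 0 with no filter, 2 with leading probe sets, 2 with gene means and 0 with 1 array left out. Dropping the vector term as block changed no call of a member at 6 or 24 h; the labels give no replicate numbers, and the culture or time point was the block. Array centring and quantile normalization moved the median of all tested probe sets at 24 h from 0.12 to 0.04 and -0.0053, and the share of calls that were higher from 58.6% to 48.6% and 42.3% (at 6 h from 55.4% to 46.2% and 40.6%). Signs changed with gene means for Tet1 1419897_at (0.42 at 6 h, -0.19 at 24 h, -0.13 for ASXL1-MT), Idh2 1450048_a_at at 24 h (0.14) and Dnmt3b 1418351_a_at for ASXL1-MT (0.054), with array centring and with quantile normalization for Dnmt1 1447877_x_at for ASXL1-MT (-0.0022 in both), and with quantile normalization for Dnmt3a 1423064_at for ASXL1-MT (-0.0081). With 1 array left out signs changed for Dnmt3a 1423065_at at 6 h (-0.47 to 0.43) and 24 h (-0.67 to 0.23), Dnmt3a 1423064_at at 24 h (-0.0907 to 0.47), Tet1 1419897_at at 6 h (-1.33 to 0.58), and for ASXL1-MT in Dnmt1 1447877_x_at (-0.0163 to 0.051), Dnmt3a 1423063_at (-0.14 to 0.0264), Dnmt3a 1423064_at (-0.12 to 0.135), Dnmt3b 1418351_a_at (-0.0409 to 0.0065), Tet1 1419897_at (-0.17 to 1.03) and Idh2 1450048_a_at (-0.0283 to 0.0025). None of these had passed. The ASXL1-MT effect at 24 h could not be fitted without either 24 h array. Dim probe sets varied most between arrays, which limits Tet1 and Tet3. Causes of these changes were not tested.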
